A study of Mus musculus with 8 samples.

Results

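Retinoic acid genes were examined in RNA of the whole brain. The mice were C57/B6 males, aged 3 months. Those called BSKO (4 animals) carried a brain-specific knockout of SIRT1, an NAD-dependent protein deacetylase, and those called WT (4 animals) were their wild-type littermates. The driver of the deletion and the deleted part of Sirt1 are not given in the sources used here. Total RNA of each brain was hybridised to 1 single-channel Affymetrix Mouse430A_2 array. Precision is limited by how few arrays there are. The 9 genes asked about, Cyp26a1, Cyp26b1, Aldh1a1, Aldh1a2, Aldh1a3, Crabp1, Crabp2, Rbp4 and Rarb, were chosen from a comparison of BSKO with WT on these same arrays. Their probe sets are those whose single gene symbol in the platform annotation is 1 of the 9, which gave 10 probe sets of 8 genes among 22626 tested probe sets of 12393 genes. Cyp26b1 was not analysed here, because no probe set carried its symbol alone. Because results of this contrast led to the choice, the genotype differences of the 10 probe sets are descriptions and carry no test.

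Retinoic acid is made from vitamin A (retinol), which travels in blood bound to the carrier RBP4. Retinol is oxidised to retinal, and the retinaldehyde dehydrogenases ALDH1A1, ALDH1A2 and ALDH1A3 turn retinal into retinoic acid. Inside cells CRABP1 and CRABP2 bind it, CRABP2 handing it to the nuclear receptors, of which Rarb encodes one, and the cytochrome P450 enzymes of the CYP26 family break it down. In the adult brain ALDH1A2 is known from the meninges, ALDH1A1 from midbrain dopaminergic neurons, and the receptor RARB from the striatum. Cyp26a1 and Rarb are textbook targets of retinoic acid itself.

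The deposited values are log2 values centred on each probe set's own median over the 8 arrays, so 0 is that median and no level of expression can be read, for these genes or for the markers of the labelled tissue. Centring also means that where 4 arrays of one genotype lie above all 4 of the other, the 2 arrays nearest to 0 mirror each other. Array BSKO 2 stood apart: the SD over its tested probe sets was 0.831, against 0.150 to 0.314 on the other 7 arrays, and its 5′ beta-actin control lay -2.44 from the 3′ one, with -0.104 to 0.489 on the others. Differences are therefore given with and without it. Sirt1 itself had 0.08, -1.46, -0.20 and -0.06 on BSKO 1 to 4, against 0.00, 0.00, 0.08 and 0.29 on WT 1 to 4. Its genotypes overlapped (limma adjusted p = 0.549, and adjusted p = 0.428 without BSKO 2). Whether its probe set lies in the deleted part is not known, so this neither checks nor contradicts the labels.

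Across the 10 probe sets, Cyp26a1, Aldh1a1, Aldh1a2 and Crabp2 were lower in BSKO, and Aldh1a3 (3 probe sets), Crabp1, Rbp4 and Rarb were higher, with the same signs without BSKO 2. The median size of the log2 difference was 0.84 for the 10, beside 0.17 over all tested probe sets, and 0.57 beside 0.12 without BSKO 2. None of the 10 had a limma adjusted p under 0.05 with 8 arrays, where 0.0309% of all probe sets did (7 of 22626). Without BSKO 2, 2 of the 10 did, Cyp26a1 and Aldh1a2, where 1.63% of all did. The genotypes did not overlap for 3 of the 10, against 12.3% of all probe sets. For 2 of these 3, Cyp26a1 and Aldh1a2, BSKO was the lower genotype, a pattern that 6.66% of all probe sets had. Without BSKO 2, 5 of the 10 separated, against 19.5% of all. The members were chosen with this contrast known, so nothing is read from these counts.

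**Figure D1:**
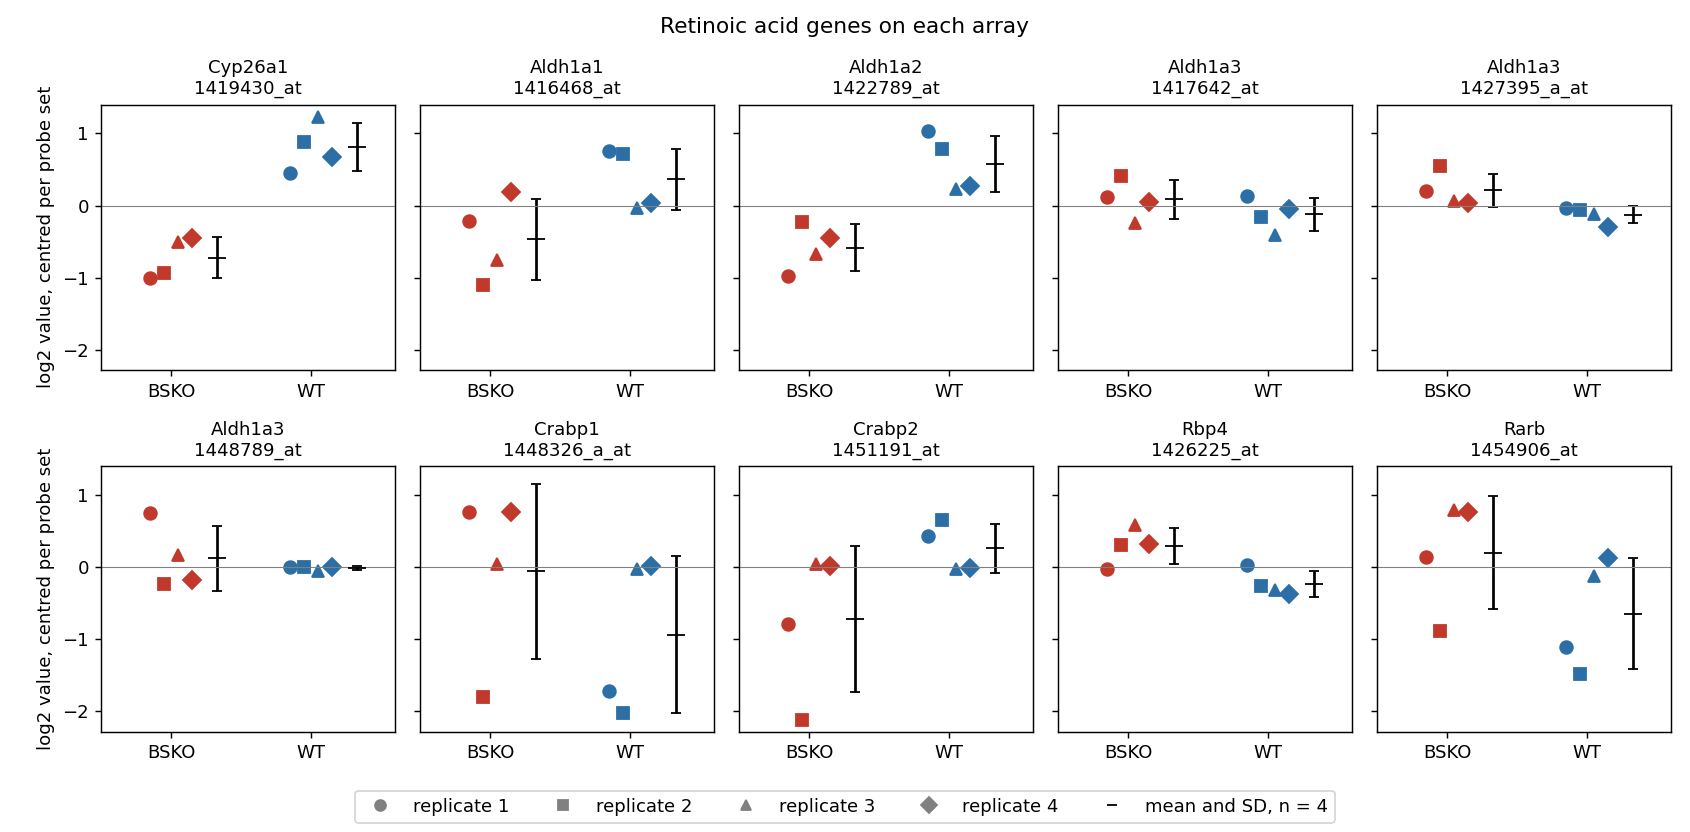
Centred log2 value of each of the 10 probe sets (vertical axis) on the 4 BSKO arrays and the 4 WT arrays, with symbols for replicate number and a bar for mean and SD. Cyp26a1 and Aldh1a2 lie below 0 on every BSKO array and above 0 on every WT array, while Crabp1 and Rarb are as low on BSKO 2 as on WT 1 and WT 2 or nearly so.

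Cyp26a1, which encodes a retinoic acid hydroxylase, differed most between the genotypes among the 10 with 8 arrays. Its probe set 1419430_at had -1.005, -0.93, -0.51 and -0.45 on BSKO 1 to 4, against 0.45, 0.88, 1.23 and 0.68 on WT 1 to 4. No BSKO array reached a WT array, and BSKO 2 lay among the other BSKO arrays. The means were -0.72 ± 0.29 in BSKO and 0.81 ± 0.33 in WT (SD, n = 4 each), a log2 difference of -1.54 (SE 0.20), or 2.90-fold lower. Without BSKO 2 the difference was -1.47 (SE 0.20). For replicates 1 and 2 alone it was -1.64, and for replicates 3 and 4 alone -1.43. WT 1 and WT 2 averaged 0.29 less than WT 3 and WT 4 here (-0.29), so the order of the WT arrays was unlike that of Aldh1a2, Aldh1a1 and Crabp2. In bulk tissue, fewer cells of a type and less RNA per cell cannot be told apart, for this and for every gene below.

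Retinoic acid receptors bind repeats of a 6-base half-site, and a direct repeat spaced by 5 bases is their classic element. The promoter windows are shown because such a repeat was found by search in 2 of the members and their values run opposite ways. RefSeq (build GRCm38.p6) gave 9 windows for 7 of the 9 genes, from 250 bases before to 50 after each gene start, with no entry used for Aldh1a3 and Crabp2. The search took 4 half-sites, AGGTCA or AGTTCA or GGGTCA or GGTTCA, in any pair in the same direction, on both strands, with overlaps allowed. With a spacing of 5, a pair occurred in 32 of 32851 windows (0.0974%), and 2 of those were the windows of Cyp26a1 and Rarb. Both are textbook targets of retinoic acid, so its classic element in their windows is background, and no enrichment is read from it. With a spacing of 1 (0.222% of windows) or 2 (0.268%) no member window held one. Capitals mark the half-sites of the repeat, and in Cyp26a1 they read on the opposite strand.
Cyp26a1, chr19:37697558-37697857, plus strand: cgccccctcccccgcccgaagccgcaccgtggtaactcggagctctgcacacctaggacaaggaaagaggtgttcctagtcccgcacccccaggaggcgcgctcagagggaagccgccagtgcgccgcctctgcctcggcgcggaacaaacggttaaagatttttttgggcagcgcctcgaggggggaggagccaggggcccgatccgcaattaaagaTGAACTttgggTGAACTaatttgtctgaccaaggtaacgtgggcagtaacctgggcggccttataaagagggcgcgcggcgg
Rarb, chr14:16575427-16575726, minus strand: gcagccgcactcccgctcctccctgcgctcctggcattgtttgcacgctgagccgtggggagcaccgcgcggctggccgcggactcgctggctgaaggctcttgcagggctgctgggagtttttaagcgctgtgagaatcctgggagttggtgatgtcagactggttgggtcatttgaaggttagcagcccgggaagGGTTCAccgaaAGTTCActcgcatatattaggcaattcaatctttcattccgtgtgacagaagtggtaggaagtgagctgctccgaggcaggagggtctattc
The repeat begins 32 bases before the gene start in Cyp26a1 (position -32) and 53 before it in Rarb (position -53). A single half-site, in either direction, occurred in 43.7% of all windows and in 4 of the 9 member windows, those of Rarb and Cyp26a1 and 1 window each of Aldh1a1 and Rbp4. A match of letters is not a site of binding, and the arrays did not measure binding. Besides these 2, the repeat was in windows of 29 other genes, and 4 of them (Ppbp, Hbb-y, Blvrb and Tnfsf13b) had probe sets, 6 in all. None of the 6 was called with 8 arrays or without BSKO 2 by limma, and 2 had an unadjusted p under 0.05 in each fit.

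**Figure D2:**
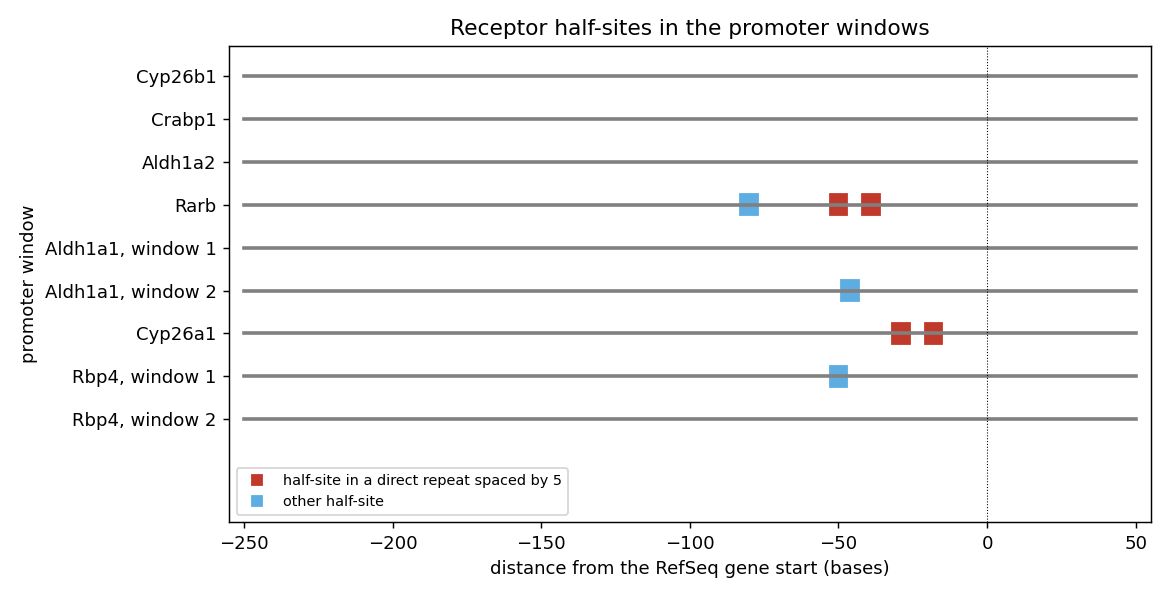
Positions of receptor half-sites in the 9 RefSeq promoter windows of the retinoic acid genes, with distance in bases from the gene start on the horizontal axis and 1 row per window. Half-sites in a direct repeat spaced by 5 (red) occur in Rarb at -53 and in Cyp26a1 at -32, and single half-sites (blue) in Rarb and in 1 window each of Aldh1a1 and Rbp4.

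Of the 3 dehydrogenases, Aldh1a2 and Aldh1a1 were lower in BSKO and Aldh1a3 differed little. Aldh1a2 (1422789_at) had -0.98, -0.23, -0.68 and -0.45 on BSKO 1 to 4, against 1.03, 0.78, 0.23 and 0.27 on WT 1 to 4. The genotypes did not overlap, and WT 1 and WT 2 were the highest arrays. The log2 difference was -1.16 (SE 0.23), or 2.24-fold lower, and -1.28 (SE 0.22) without BSKO 2. It was larger within replicates 1 and 2 (-1.51) than within replicates 3 and 4 (-0.81), a gap that was not tested.

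Aldh1a1 (1416468_at) had -0.22, -1.10, -0.75 and 0.18 on BSKO 1 to 4, against 0.75, 0.71, -0.04 and 0.04 on WT 1 to 4. BSKO 4 lay above WT 3 and WT 4, so the genotypes overlapped. The difference was -0.84 (SE 0.31), and -0.63 (SE 0.27) without BSKO 2. Within replicates 1 and 2 it was -1.39 and within replicates 3 and 4 it was -0.28.

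The 3 probe sets of Aldh1a3 had log2 differences of 0.21 (SE 0.17, 1417642_at), 0.34 (SE 0.14, 1427395_a_at) and 0.13 (SE 0.21, 1448789_at). Only 1427395_a_at, among these 3, separated the genotypes, with 0.20, 0.54, 0.06 and 0.04 on BSKO 1 to 4, against -0.04, -0.07, -0.11 and -0.29 on WT 1 to 4. The gap between BSKO 4 and WT 1 was small. The 3 did not move together over the arrays: on BSKO 1 they had 0.12, 0.20 and 0.75, and on BSKO 2 they had 0.41, 0.54 and -0.24.

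The 2 binding proteins ran opposite ways, Crabp1 higher and Crabp2 lower in BSKO. Crabp1 (1448326_a_at) had 0.77, -1.80, 0.05 and 0.76 on BSKO 1 to 4, against -1.71, -2.03, -0.02 and 0.02 on WT 1 to 4. BSKO 2 lay with WT 1 and WT 2, far below the other 5 arrays. The difference was 0.88 (SE 0.69) with 8 arrays and 1.46 (SE 0.54) without BSKO 2, where the 3 BSKO arrays lay above all WT arrays, BSKO 3 by little. WT 1 and WT 2 differed from WT 3 and WT 4 by -1.87, more than the genotypes differed.

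Crabp2 (1451191_at) had -0.79, -2.11, 0.04 and 0.02 on BSKO 1 to 4, against 0.44, 0.66, -0.03 and -0.02 on WT 1 to 4. The low values were those of BSKO 1 and BSKO 2, while BSKO 3 and BSKO 4 lay just above WT 3 and WT 4. The difference was -0.97 (SE 0.46), and -0.51 (SE 0.25) without BSKO 2. For replicates 1 and 2 alone it was -2.002, and for replicates 3 and 4 alone 0.05.

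Rbp4, the gene of the retinol carrier (1426225_at), had -0.03, 0.30, 0.59 and 0.32 on BSKO 1 to 4, against 0.03, -0.26, -0.32 and -0.37 on WT 1 to 4. BSKO 1 lay just below WT 1, and the other BSKO arrays lay above all WT arrays. The difference was 0.52 (SE 0.15), or 1.44-fold higher, and 0.52 (SE 0.16) without BSKO 2. For replicates 1 and 2 alone it was 0.25, and for replicates 3 and 4 alone 0.80. Cyp26a1 and Rbp4 lie on chromosome 19 with 9 annotated genes between them, of which Myof and Cep55 had 2 probe sets each. None of these 4 passed the test (limma adjusted p = 0.365 to 0.907, and adjusted p = 0.166 to 0.946 without BSKO 2), with log2 differences of -0.44 to 0.33. On Myof 1427318_s_at every BSKO array lay below every WT array (-0.44, and -0.45 without BSKO 2), a pattern that 6.66% of all probe sets had with 8 arrays. The other Myof probe set (1452455_at) overlapped, with 0.03.

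Rarb, the retinoic acid receptor gene (1454906_at), had 0.14, -0.88, 0.79 and 0.77 on BSKO 1 to 4, against -1.10, -1.49, -0.12 and 0.12 on WT 1 to 4. BSKO 2 was below WT 3 and WT 4, so the genotypes overlapped with 8 arrays, and without it BSKO 1 lay just above WT 4. The difference was 0.85 (SE 0.47), and 1.21 (SE 0.39) without BSKO 2. For replicates 1 and 2 alone it was 0.92, and for replicates 3 and 4 alone 0.78, while WT 1 and WT 2 differed from WT 3 and WT 4 by -1.29. A model that also held a term for this split of the replicates gave the difference of 0.85 an SE of 0.22. The same term took the SE of Crabp1 from 0.69 to 0.53, but that of Aldh1a1 went from 0.31 to 0.32 and that of Crabp2 from 0.46 to 0.45. No label gives this split.

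**Figure D3:**
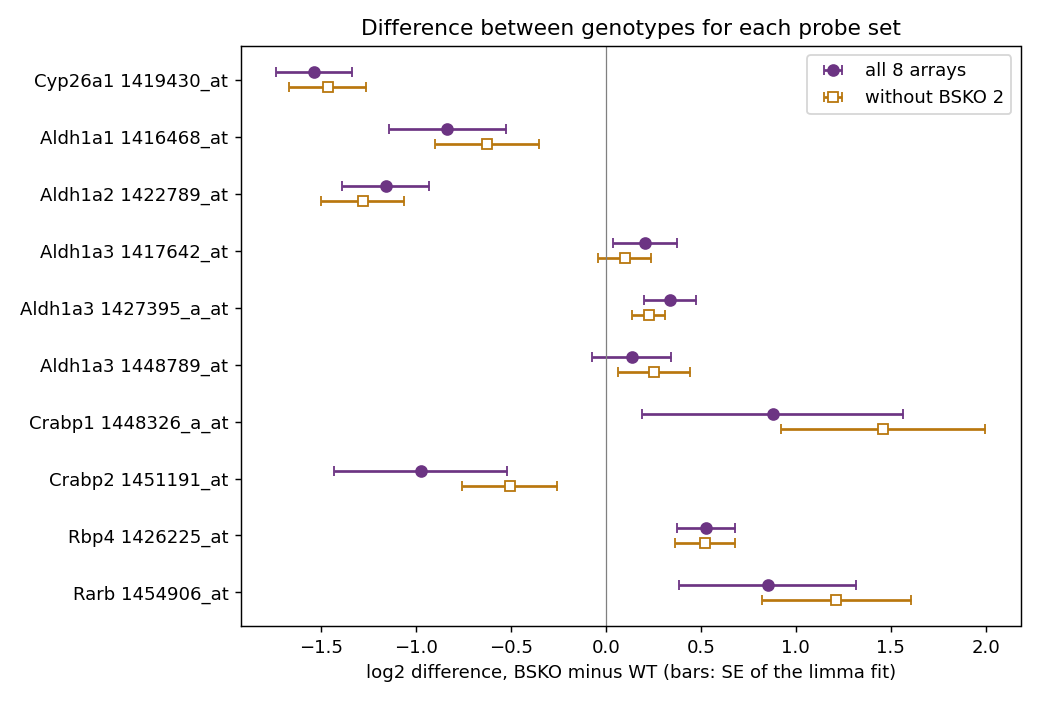
Log2 difference, BSKO minus WT (horizontal axis, bars are the SE of the limma fit), for each of the 10 probe sets with all 8 arrays (circles) and without BSKO 2 (squares). Cyp26a1 and Aldh1a2 keep about the same value, while Crabp1 goes to 1.46 and Rarb to 1.21 without BSKO 2, against 0.88 and 0.85 with it.

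Most of the 10 varied widely among WT brains alone. The SD over the 4 WT arrays was 1.09 for Crabp1, 0.77 for Rarb, 0.42 for Aldh1a1, 0.40 for Aldh1a2, 0.34 for Crabp2 and 0.33 for Cyp26a1, each larger than that of at least 96.9% of all tested probe sets. The median of this SD was 0.337 over the 10 and 0.101 over all. Of the other 4, Aldh1a3 1417642_at had 0.23 (larger than 90.1% of all), Rbp4 0.18 (81.1%), Aldh1a3 1427395_a_at 0.12 (58.3%) and Aldh1a3 1448789_at 0.03 (3.77%). For several genes this spread held a step between WT 1 and WT 2 and the other WT arrays. WT 1 and WT 2 differed from WT 3 and WT 4 by -1.87 for Crabp1 and -1.29 for Rarb. The step was 0.73 for Aldh1a1, 0.66 for Aldh1a2 and 0.57 for Crabp2, and -0.29 for Cyp26a1.

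Cell type markers moved with several of these genes, and their part in the results was not tested. The marker lists were written with earlier results of these data known, so their counts are descriptions. All 23 probe sets of the 11 meningeal and fibroblast genes were lower in BSKO with 8 arrays and without BSKO 2. Of all probe sets 46.5% and 47.8% were lower in these 2 settings. Their median on each array was -0.46, -0.30, -0.33 and -0.14 on BSKO 1 to 4, against 0.59, 0.58, 0.11 and 0.14 on WT 1 to 4. Aldh1a2 had the same order of genotypes and also its highest values on WT 1 and WT 2, as had the midbrain dopaminergic and dentate gyrus medians. Its values differed on average over the 8 arrays by 0.268 from the meningeal median, by 0.271 from the dopaminergic one and by 0.299 from the dentate gyrus one. Cyp26a1 differed by 0.472, 0.615 and 0.547 from the same 3 medians.

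All 10 probe sets of the 7 striatal projection neuron genes were higher in BSKO, where 46.5% of all probe sets were lower with 8 arrays. This list too was written with earlier results of these data known. Their median was 0.09, 0.13, 1.14 and 1.16 on BSKO 1 to 4, against -1.87, -1.73, 0.01 and -0.09 on WT 1 to 4. Rarb and Crabp1 were lowest in WT on the same 2 arrays, WT 1 and WT 2. Of all marker medians the striatal one lay nearest to both, on average 0.395 from Rarb and 0.587 from Crabp1 over the 8 arrays. Next came the astrocyte median, at 0.679 and 0.904. On BSKO 2 both genes were far below the striatal median. The 7 probe sets of midbrain dopaminergic genes had a median of -0.62, -0.11, -0.66 and 0.08 on BSKO 1 to 4, against 1.24, 1.12, -0.01 and -0.10 on WT 1 to 4. Aldh1a1 had its highest values on the same 2 WT arrays, but differed on average by 0.331 from the dopaminergic median, against 0.287 from the dentate gyrus median and 0.289 from the meningeal one. Choroid plexus markers (13 probe sets of 8 genes) had a median of 0.30, 0.12, -0.04 and -1.87 on BSKO 1 to 4, against 0.05, 0.02, -0.03 and -0.02 on WT 1 to 4. Rbp4 was not low on BSKO 4, the array where they were low. Dentate gyrus markers had medians of -0.32 to 0.00 in BSKO and 0.01 to 0.75 in WT, and those of pituitary genes were -0.21 to 0.51 in BSKO and -0.26 to 0.90 in WT. Endothelial and astrocyte medians stayed within -0.24 and 0.11 on all 8 arrays.

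**Figure D4:**
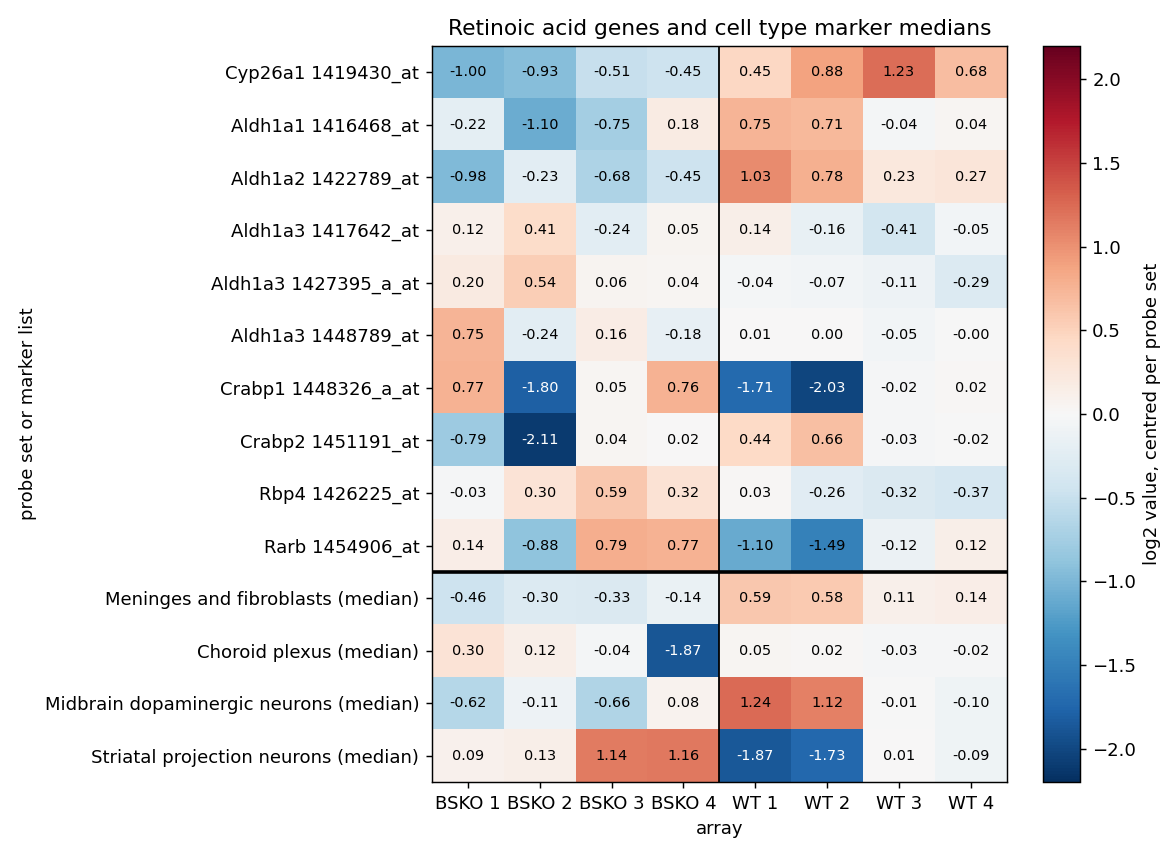
Centred log2 values of the 10 probe sets (upper rows) and the medians of 4 marker lists (lower rows) on each BSKO array (left) and WT array (right), with colour and printed number giving the value. WT 1 and WT 2 differ from WT 3 and WT 4 for Crabp1, Rarb and the striatal and dopaminergic medians, and Cyp26a1 does not show that step.

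As a description of shared pattern, the probe sets nearest to each widely varying member were sought by the mean absolute difference of log2 values over the 8 arrays. Nearest to Cyp26a1 were Ptgs2, the inducible cyclooxygenase gene (0.171), the tetraspanin gene Tspan8 (0.246) and the prostaglandin F receptor gene Ptgfr (0.258). Nearest to Aldh1a2 were the coagulation factor gene F13a1 (0.160), Il13ra2 (0.167) and Fibin (0.168). Aldh1a1 had 2 probe sets of Cp, the ceruloplasmin gene (0.138 and 0.140), then Vamp1 (0.167). Crabp2 lay nearest to Slc6a13 (0.101), a transporter gene, Cd163 (0.147) and Islr (0.153), and Slc6a13 and Islr are 2 of the meningeal markers. That marker list was written with earlier results of these data known, so nothing is read from the overlap. Rarb lay nearest to Rasd2 (0.157), Meis2 (0.249) and Arhgap10 (0.250). Crabp1 had more distant neighbours, Neu2 (0.328), Eps8l1 (0.397) and the striatal marker Penk (0.442). Among the members, Aldh1a1 and Crabp2 were 0.373 apart, Cyp26a1 and Aldh1a2 0.377, and Crabp1 and Rarb 0.457.

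The rest of the retinoid pathway was followed in 63 genes with 94 probe sets, from a list of 72 genes that holds no member. Nr2f2 and Nr2f1, which encode the orphan nuclear receptors COUP-TFII and COUP-TFI, fell without BSKO 2, and no other gene of the list passed. With 8 arrays none of the 94 passed (limma, Benjamini-Hochberg over all 22626) and 14 had an unadjusted p under 0.05. Without BSKO 2, 4 of 94 passed (4.26%, beside 1.63% of all probe sets), and 18 had an unadjusted p under 0.05. The 4 were lower in BSKO and came from 2 genes, most of them from Nr2f2. The median log2 difference of the 94 was -0.03 without BSKO 2, beside 0.01 over all probe sets, and 0.01 beside 0.02 with 8 arrays. That Nr2f2 was low in BSKO was known when the list was written, so its calls are not independent evidence. No excess is read from the 4.26%.

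Genes that respond to retinoic acid held the 4 calls, 3 probe sets of Nr2f2 and 1 of Nr2f1, among 38 probe sets of 23 genes. With 8 arrays 25 of the 38 were higher in BSKO and 13 lower, where 46.5% of all probe sets were lower. Without BSKO 2, 17 were higher and 21 lower, where 47.8% of all were lower. Nr2f2 (1416159_at) had -0.45, -0.53, -0.96 and -0.42 on BSKO 1 to 4, against 0.46, 0.42, 0.77 and 0.61 on WT 1 to 4. The genotypes did not overlap. Without BSKO 2 the log2 difference was -1.17 (SE 0.15, limma adjusted p = 0.0189), and with 8 arrays it was -1.15 (limma adjusted p = 0.0652). The other 2 Nr2f2 probe sets differed by -1.25 (limma adjusted p = 0.0170) and -1.03 (limma adjusted p = 0.0281) without BSKO 2. With 8 arrays they differed by -1.01 (limma adjusted p = 0.245) and -0.76 (limma adjusted p = 0.387). Nr2f1 (1418157_at) had -0.45, 0.10, -0.73 and -0.41 on BSKO 1 to 4, against 0.02, -0.02, 0.06 and 0.14 on WT 1 to 4. BSKO 2 was the array that overlapped with WT. The difference was -0.58 (SE 0.09, limma adjusted p = 0.0319) without BSKO 2 and -0.42 (limma adjusted p = 0.432) with it. The chemerin gene Rarres2 (1425091_at) did not pass, with a difference of 0.30 without BSKO 2 (limma adjusted p = 0.0858) and of 0.85 with 8 arrays (limma adjusted p = 0.525), where BSKO 2 alone had 2.35. Its other probe sets, 1428538_s_at and 1437902_s_at, differed by 0.63 and 0.53 without BSKO 2 and by 0.69 and 0.78 with 8 arrays. Both overlapped between the genotypes, and they were high on BSKO 1 (1.56 and 1.27) as well as on BSKO 2 (0.85 and 1.45). Isl1 and Rai1, named outside the rule because they were higher in BSKO, did not pass. Isl1 differed by 1.48 (1422720_at, limma adjusted p = 0.203) and 1.33 (1450723_at, limma adjusted p = 0.306) with 8 arrays. Without BSKO 2 these were 1.39 and 1.19. On 1422720_at, WT 1 and WT 2 had -1.46 and -1.70, against -0.22 and -0.40 on WT 3 and WT 4. Rai1 differed by 0.58 (1420454_at) and 0.01 (1453200_at) with 8 arrays, and by 0.57 and 0.14 without BSKO 2. The largest difference of the 38 went the other way and did not pass. It was that of Foxa1 (1418496_at), at -1.60 (limma adjusted p = 0.483) with 8 arrays and -1.87 (limma adjusted p = 0.247) without BSKO 2. Its genotypes overlapped, and WT 1 and WT 2 had 2.01 and 1.89, against -0.35 and 0.01 on WT 3 and WT 4.

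None of the receptors, binding proteins and coregulators (15 probe sets of 10 genes) passed. Rxrg, which encodes a retinoid X receptor, the partner of the retinoic acid receptors, had 0.39, -0.16, 1.15 and 1.30 on BSKO 1 to 4, against -1.13, -1.02, 0.07 and -0.07 on WT 1 to 4. Its WT arrays split in the same way as those of Rarb. The difference was 1.48 (SE 0.35, limma adjusted p = 0.0828) without BSKO 2 and 1.21 (limma adjusted p = 0.353) with it. Differences without BSKO 2 were 0.24 for Rarg (1419415_a_at, limma adjusted p = 0.234) and 0.25 for the coactivator gene Ncoa3 (limma adjusted p = 0.229), against 0.46 and 0.07 with 8 arrays. The other Rarg probe set (1419416_a_at) differed by 0.07 without BSKO 2 and by 0.05 with 8 arrays. Chosen for its role and not by rule, Rara differed by 0.09 without BSKO 2 (limma adjusted p = 0.524) and by 0.23 with 8 arrays.

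None of the enzymes and carriers passed either. Among genes of retinol and retinal interconversion (23 probe sets of 17 genes), 19 probe sets were lower in BSKO without BSKO 2, with a median of -0.10, where 47.8% of all probe sets were lower. With 8 arrays 14 of the 23 were lower, with a median of -0.05, where 46.5% of all were. The retinal reductase gene Rdh11 (1449209_a_at) had the smallest p of these and did not overlap between genotypes, with a difference of -0.39 (SE 0.08, limma adjusted p = 0.0513) without BSKO 2 and -0.53 (limma adjusted p = 0.285) with it. Its other probe set (1418760_at) did not overlap either, with -0.24 (limma adjusted p = 0.187) without BSKO 2 and -0.59 (limma adjusted p = 0.518) with it. The alcohol dehydrogenase gene Adh1 differed by -0.32 (limma adjusted p = 0.211) and Dhrs4 (1451559_a_at) by -0.16 (limma adjusted p = 0.252) without BSKO 2. With 8 arrays Adh1 differed by -0.38, and the direction of this Dhrs4 probe set was lost (0.0060, limma adjusted p = 0.989). The other Dhrs4 probe set (1419382_a_at) kept it, with -0.36 (limma adjusted p = 0.472) with 8 arrays and -0.21 (limma adjusted p = 0.257) without BSKO 2. Among other synthesis and breakdown enzymes (6 probe sets of 3 genes), the cytochrome gene Cyp1b1 (1416612_at) had -0.61, 0.35, -0.79 and -0.58 on BSKO 1 to 4, against 0.72, 0.81, -0.06 and 0.06 on WT 1 to 4. Again WT 1 and WT 2 were the highest of the WT arrays, and the difference was -1.04 (SE 0.22, limma adjusted p = 0.0637) without BSKO 2 and -0.79 (limma adjusted p = 0.414) with it. The other Cyp1b1 probe sets differed by -0.67 (1416613_at) and 0.07 (1432081_at) without BSKO 2, and by -0.68 and 0.10 with 8 arrays. Aldh1a7, a close paralog of Aldh1a1 in the mouse, differed by -0.65 (SE 0.34, limma adjusted p = 0.331) without BSKO 2 and by -0.88 with it, with a split of the WT arrays like that of Aldh1a1, and the 2 probe sets may share transcripts. Aldh8a1 (1427336_at) differed by -0.11 (limma adjusted p = 0.446) without BSKO 2 and by -0.08 with it, and its other probe set (1427337_at) by 0.0033 and -0.12.

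Storage and transport genes (12 probe sets of 10 genes) had differences of -0.42 to 0.23 without BSKO 2 and of -0.32 to 0.58 with 8 arrays. Rlbp1, a retinaldehyde-binding protein gene, differed by -0.37 (limma adjusted p = 0.0935), Rbp2 by 0.19 (limma adjusted p = 0.297) and the carotenoid oxygenase gene Bco2 by 0.23 (limma adjusted p = 0.315). With 8 arrays these 3 differed by -0.20, 0.35 and 0.23. Named for its role, Ttr encodes the partner of RBP4 in blood and is also a choroid plexus marker. Its probe set 1451580_a_at had 0.14, -0.01, -0.04 and -1.31 on BSKO 1 to 4, against 0.06, 0.01, -0.05 and 0.02 on WT 1 to 4, so BSKO 4 alone was low. The retinol receptor gene Stra6, also named for its role, reached 2.13 on BSKO 2 and lay between -0.56 and 0.45 on the other 7 arrays.

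**Figure D5:**
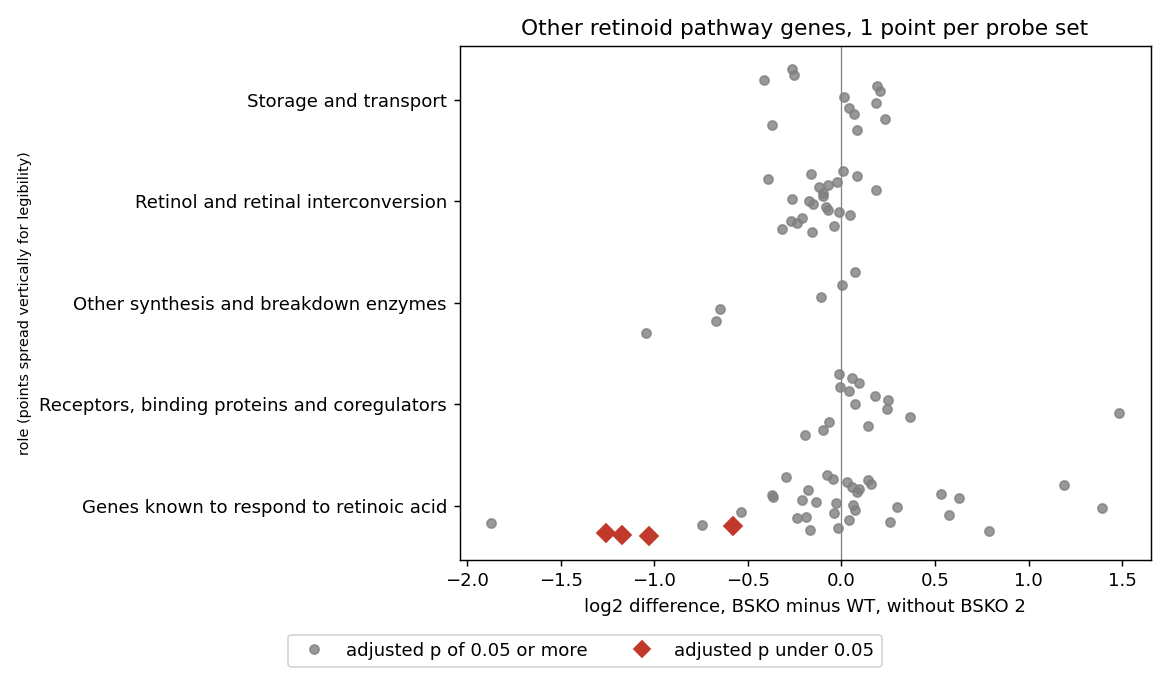
Log2 difference, BSKO minus WT, without BSKO 2 (horizontal axis) for the 94 probe sets of other retinoid pathway genes, 1 point each, in rows by role. Red diamonds mark the 4 with a limma adjusted p under 0.05, which are 3 of Nr2f2 and 1 of Nr2f1, all left of 0.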

How the data were processed

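The authors made the deposited log2 values (22690 probe sets, 8 arrays) with RMA, as the submitters' processing notes name it; the version is not given in the sources used here. Medians over the arrays lay within 1e-05 of 0 for 22689 of them, a centring that no label records. The 64 control probe sets were left out, and no filter was applied. Symbols came from the platform annotation (20380 of 22626 tested probe sets had 1) and were updated by gene number through RefSeq.

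The genotypes were tested two-sided by lmFit and eBayes of limma 3.58.1 (R 4.3.3). P-values were adjusted by Benjamini-Hochberg across the 22626 probe sets, with a threshold of 0.05; a probe set under it is called. The script was tested on simulated data. Figures were drawn with matplotlib 3.10.9. Members, gene lists, markers and rules for named genes were chosen with earlier results of these data known, and the promoter search and the list of genes that hold the repeat were added later. Named pathway genes were those called and up to 3 per role with the smallest p without BSKO 2; neighbours by pattern were the 3 nearest for each member spanning at least 1 on 7 arrays. Alternatives were other normalizations, a replicate block, a term for replicates 1 and 2 against 3 and 4, array weights, other eBayes settings, a threshold of 0.10, 1 value per gene, leaving out cross-hybridising probe sets and leaving out each array. Equal replicate numbers did not pair the arrays: the correlations of their deviations from the group means were 0.0858, 0.0562, 0.14 and 0.129 for numbers 1 to 4. Over all pairs of a BSKO and a WT array, the 8 within replicates 1 and 2 or within 3 and 4 were positive (0.0307 to 0.165). The 8 across these sets were negative (-0.147 to -0.0374), and no label gives such sets. Deviations cancel within a genotype, so positive values within the sets bring negative ones across, and the signs are not separate observations.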

Additional observations from a re-analysis of the deposited data

Results flagged for a closer look

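In 22 groups of 4 arrays (11 probe sets in each genotype, Sirt1 included), 1 array lay far from the rest of its group for its spread. It was WT 3 for the Aldh1a3 probe set 1448789_at, at -0.0537, where the other 3 WT arrays lay within 0.01 of 0. The distance is small beside the spread of the same probe set over the BSKO arrays (SD 0.453), and chance alone gives about 1 such flag in 20 groups.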

How the results depend on the processing

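Over 13 alternatives each (14 for Aldh1a3), all 10 member probe sets kept their direction with 1 exception, Aldh1a3 1448789_at. It ranged from -0.0733 (without BSKO 1) to 0.2551 (without BSKO 2) when single arrays were left out, against 0.135 with all 8. Not every alternative could change a direction. The replicate block and the term for the split of the replicates left each difference as it was. Centring each array on its median shifted all members by the same small amount, Cyp26a1 from -1.536 to -1.547. The members were also chosen with this contrast known, so the kept directions are a description. Cyp26a1 ranged from -1.87 to -1.38, Aldh1a2 from -1.37 to -1.01, Aldh1a1 from -1.05 to -0.37, Crabp2 from -1.23 to -0.42, Rbp4 from 0.43 to 0.66, Crabp1 from 0.51 to 1.66 and Rarb from 0.57 to 1.35. The value of -1.87 for Cyp26a1 came with quantile normalization.

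The count of called probe sets was 7 with 8 arrays. It was 678 with quantile normalization, 84 where replicates 1 and 2 were set against 3 and 4 in the model, 0 with the replicate block (limma, 2121 at an unadjusted p under 0.05, against 2440 without the block), 2617 with array weights, 108 with trend and robust settings and 66 at a threshold of 0.10. Leaving out single arrays gave 0 (without WT 4, with 1576 at an unadjusted p under 0.05) to 369 (without BSKO 2), with 1 call without WT 2 or WT 3 and 2 calls without BSKO 3 or WT 1. For the other retinoid pathway genes the count was 0 with 8 arrays and also 0 with the replicate block (17 at an unadjusted p under 0.05). It was 4 with quantile normalization, 2 where replicates 1 and 2 were set against 3 and 4, 12 with array weights, 1 with trend and robust settings and 1 at a threshold of 0.10. Leaving out single arrays gave 0 to 4, the 4 without BSKO 2. The causes were not tested; array weights gave BSKO 2 a weight of 0.0456 and BSKO 4 one of 3.69. Dim probe sets were not filtered (not run): centring took away the brightness, so the signal over background is unknown too.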
